A study of Mus musculus with 12 samples.

Results

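The granzymes and perforin are the proteins with which a killer T cell destroys its target. The 10 mouse genes described here were Gzma, Gzmb, Gzmc, Gzmd, Gzme, Gzmf, Gzmg, Gzmk, Gzmm and Prf1. They were chosen by name, as the rows of the count tables whose identifiers carry these symbols in GENCODE release M21, and all 10 were found among 55487 gene identifiers. RNA sequencing covered 12 samples of CD8+ T cells from OT-1 mice, in 4 groups of 3. OT-1 is a transgenic line whose CD8+ T cells bear a single T cell receptor against an ovalbumin peptide. The groups Female and Male held spleen cells of each sex, collected 3 days after the start of stimulation with beads against CD3 and CD28 plus recombinant mouse IL2. The groups WT and KD came from another batch of male cells that was electroporated and then grown for 3 days. KD cells received Cas9 and a guide RNA against Kdm5d, a histone demethylase gene on the Y chromosome. WT cells received guide RNA and no Cas9, so what Cas9 did and what the loss of Kdm5d did cannot be told apart. The labels do not give the number of mice, whether the WT and KD cells were stimulated with beads, or the target of the guide in WT. The p-values therefore measure the spread between these samples, which may be technical.

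Cytotoxic T cells store granzymes and perforin in secretory granules and release them toward a target at the immune synapse. Perforin (Prf1) forms pores that let granzymes, which are serine proteases, reach the cytosol of the target. Granzyme B (Gzmb) cuts after aspartate and sets off caspases and Bid, granzyme A (Gzma) and granzyme K (Gzmk) cut after basic residues, and granzyme M (Gzmm) prefers methionine or leucine. Granzymes C to G are rodent relatives of granzyme B. Naive CD8+ T cells make little of most of these proteins and load their granules after activation.

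The genes lie at 4 places in the genome (GRCm38, GENCODE M21), and each granzyme model has 5 exons. Gzma (ENSMUSG00000023132) at chr13:113093825-113100981 and Gzmk (ENSMUSG00000042385) at chr13:113171608-113225908 lie side by side on the minus strand. Gzmb (ENSMUSG00000015437) at chr14:56258838-56262260 ends a minus-strand cluster that starts at 56117626 with Gzme and holds Gzmd, Gzmg, Gzmf and Gzmc in between. Gzmm (ENSMUSG00000054206) at chr10:79689020-79695261 and the 3-exon gene Prf1 (ENSMUSG00000037202) at chr10:61297833-61304680 are on the plus strand, far apart. The coding sequences of Gzmd and Gzme were 93.3% identical over the aligned length. Gzmb and Gzmc were 76.3% identical, and Gzma and Gzmk 55.6%.

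The likeness of the chromosome 14 copies limits how well their reads can be assigned, which the first 60 coding bases show, read from the GENCODE M21 transcripts. Capitals mark each base that differs from Gzmd.
Gzmd: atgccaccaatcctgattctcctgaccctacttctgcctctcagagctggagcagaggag
Gzme: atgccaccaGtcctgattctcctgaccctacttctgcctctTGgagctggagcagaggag
Gzmg: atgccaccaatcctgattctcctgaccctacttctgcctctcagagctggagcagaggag
Gzmf: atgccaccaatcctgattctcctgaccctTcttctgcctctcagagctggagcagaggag
Gzmc: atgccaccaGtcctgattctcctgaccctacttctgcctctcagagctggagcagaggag
Gzmb: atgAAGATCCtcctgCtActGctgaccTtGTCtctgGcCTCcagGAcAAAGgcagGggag
Gzmg matched Gzmd at every base, Gzmf and Gzmc differed from it at 1 base each, Gzme at 3 and Gzmb at 25. Over whole transcripts, the share of 31-base subsequences also found in another gene was 42.1% for Gzme, 38.2% for Gzmd, 33.8% for Gzmg, 22.8% for Gzmf and 14.8% for Gzmc. It was 1.35% for Gzmb, 0.41% for Prf1 and 0 for Gzma, Gzmk and Gzmm. The counts of Gzmc to Gzmg are therefore uncertain, since a read may have been credited to the wrong copy, while those of the other 5 genes are little affected.

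The promoters of the same copies also resemble each other, and a cyclic AMP response element (CRE, letters TGACGTCA) shows where they differ. The stretches below, from RefSeq on GRCm38.p6, are 40 bases long and read 5′ to 3′ on the minus strand. They lie at chr14:56234691-56234730 for Gzmc, chr14:56211466-56211505 for Gzmf, chr14:56159633-56159672 for Gzmg, chr14:56132631-56132670 for Gzmd and chr14:56120664-56120703 for Gzme. Capitals mark the 8 bases of the element.
Gzmc: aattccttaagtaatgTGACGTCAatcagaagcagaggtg
Gzmf: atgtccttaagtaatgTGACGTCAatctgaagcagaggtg
Gzmg: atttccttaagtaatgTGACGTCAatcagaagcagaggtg
Gzmd: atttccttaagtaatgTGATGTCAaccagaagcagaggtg
Gzme: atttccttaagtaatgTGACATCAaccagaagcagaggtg
Gzmc, Gzmf and Gzmg held the full element. Gzmd carried C4T and Gzme G5A, counted from 1 at the first base of the element with the element's own base first. The full element was found, on either strand, in 1.55% of 32851 promoter windows of 250 bases. A match of letters is a description and not a binding site.

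The 250 bases before the RefSeq start of Gzma, Gzmb and Prf1 are shown. These 3 genes were called higher in Male and lower in KD in the comparisons described below, by unequal amounts. Gzmc and Gzmk were called in the same directions. The windows of Gzma, Gzmb and Prf1 are chr13:113100982-113101231 (minus strand), chr14:56262335-56262584 (minus strand) and chr10:61297586-61297835 (plus strand). Capitals mark matches on either strand.
Gzma: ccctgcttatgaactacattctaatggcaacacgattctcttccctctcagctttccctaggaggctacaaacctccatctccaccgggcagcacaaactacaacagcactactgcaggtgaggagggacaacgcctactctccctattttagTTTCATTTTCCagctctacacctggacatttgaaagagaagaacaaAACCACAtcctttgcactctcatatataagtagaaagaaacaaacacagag
Gzmb: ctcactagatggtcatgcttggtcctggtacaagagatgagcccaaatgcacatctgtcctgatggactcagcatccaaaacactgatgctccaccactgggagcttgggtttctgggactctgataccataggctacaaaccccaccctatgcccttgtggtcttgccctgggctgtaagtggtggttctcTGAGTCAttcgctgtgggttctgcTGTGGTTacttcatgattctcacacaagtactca
Prf1: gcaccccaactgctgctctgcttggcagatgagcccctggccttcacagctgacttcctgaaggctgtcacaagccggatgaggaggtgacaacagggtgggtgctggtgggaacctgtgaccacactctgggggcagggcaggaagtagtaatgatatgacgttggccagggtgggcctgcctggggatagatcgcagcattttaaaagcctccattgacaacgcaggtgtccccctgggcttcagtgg
Gzma held an interferon-stimulated response element (ISRE) from -97 to -88 and, overlapping it, the NFAT letters GGAAAA from -92 to -87, both on the opposite strand, with a RUNX match (letters TGTGGTT) from -51 to -45. Gzmb held an AP-1 match (letters TGANTCA) from -58 to -52 and RUNX letters from -34 to -28. The Prf1 and Gzmk windows held none of the 8 motifs searched, which says only that these letters are not in these windows. RUNX letters were found in 7 of the 10 genes, namely Gzma to Gzmg, and in 4.4% of all windows. AP-1 letters were in 1 of the 10 (6.75% of all windows), ISRE letters in 1 (2.98%), NFAT letters in 2 (20.4%), the Blimp-1 letters GAAAGT in 2 (12.3%), the STAT letters TTCNNNGAA in 1 (7.02%) and the T-box letters TCACACCT in 0 (1.12%). Copies of 1 ancestor share sequence, so the chromosome 14 matches are not independent of each other.

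Total counts per sample ranged from 78748647 to 110803318. Kdm5d was at 50.9 CPM (counts scaled to a library of 1000000) ± 2.22 (SD, n = 3) in WT and 22 CPM ± 0.763 (SD, n = 3) in KD. The log2 fold change was -1.21 (SE 0.0455, adjusted p 3.13e-08 by edgeR). Male libraries held 50.9 CPM ± 1.33 (SD, n = 3), and the Female libraries held at most 2 counts. The labelled cell type was checked with 6 genes of CD8 T cells (the CD3 chains, Cd8a, Cd8b1 and Trac). They summed to 1600 to 1620 CPM in Female, 1500 to 1540 in Male, 1840 to 1900 in WT and 1720 to 1770 in KD. The sums were thus somewhat lower in Male than in Female and in KD than in WT, without overlap. Natural killer cells, which also make granzymes, were represented by 7 genes that summed to 0.637 to 1.12 CPM in Male, 0.649 to 1.0 in Female, 2.32 to 2.52 in WT and 1.54 to 2.31 in KD. Of these Klra8 was at 0 outside KD. Klrb1c, named after its values were seen, was the only one with a mean above 1 CPM, in WT. Klrb1c averaged 1.41 CPM in WT and 0.772 in KD (log2 fold change -0.86, adjusted p 0.041 by edgeR). Between the sexes its adjusted p was 0.116 by edgeR. Ncr1, Klra7 and Tyrobp had adjusted p of 0.337 or more between KD and WT by edgeR. The sums of 8 mast cell and basophil genes were at most 0.637 CPM, those of 6 neutrophil granule genes at most 0.188 CPM, and both red cell globin genes were at 0. Cma1, Tpsb2 and Mcpt4 of the mast cell list and Elane, S100a8 and S100a9 of the neutrophil list were at 0 in every library. Sums of 8 macrophage and dendritic cell genes were 0.574 to 1.21 CPM in Female, 0.667 to 0.961 in Male, 3.79 to 4.77 in WT and 1.47 to 2.33 in KD, with Siglech at 0 throughout. The 3 CD4 T cell genes (Cd4, Foxp3 and Cd40lg) summed to 2.31 to 6.31 CPM, and Cd4 itself averaged at most 0.182 CPM in any group. The 3 gamma-delta T cell genes summed to between 120 and 176 CPM, nearly all from the constant gene Trdc. Trdv4 had log2 fold changes of 0.64 in Male (adjusted p 0.0479 by edgeR) and -0.52 in KD (adjusted p 0.0293 by edgeR). Sox13 had -0.15 (adjusted p 0.345 by edgeR) and 1.04 (adjusted p 0.00616 by edgeR). Trdc had 0.11 (adjusted p 0.00841 by edgeR) and 0.03 (adjusted p 0.362 by edgeR). These 3 were named after their values were seen. The part of these other cells in the results was not tested.

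The first comparison asked how the sexes differ after activation. Male cells held more RNA of Gzma, Gzmb, Gzmc, Gzmk, Gzmm and Prf1 than Female cells. The rise was 9.36-fold for Gzma, 4.71-fold for Prf1, 2.61-fold for Gzmk, 2.31-fold for Gzmb, 1.72-fold for Gzmc and 1.64-fold for Gzmm. The granzyme genes Gzmd, Gzme, Gzmf and Gzmg were nearly silent in both sexes and did not pass the filter on low counts. Of the 6 genes tested, 6 were called higher in Male and 0 lower at an adjusted p under 0.05, where 23.5% of 20208 genes rose and 26.3% fell (49.8% in either direction). With at least 1 log2 unit required as well, 4 of the 6 were called (Gzma, Gzmb, Gzmk and Prf1), against 7.28% of all genes. The groups did not overlap in any of the 6, against 58.3% of all genes tested. Their median on the log2 scale was 1.30, beside 0.0106 over all genes. In bulk RNA, fewer cells with a transcript and less transcript per cell cannot be told apart.

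Gzma was at 6.07, 5.48 and 5.24 CPM in Female and at 53.8, 51.9 and 51.3 CPM in Male. The 3 Male libraries were alike and far above every Female library. Its log2 fold change of 3.23 (SE 0.0565, adjusted p 5.49e-11 by edgeR) was larger in size than that of 99.49% of the genes tested, and by p it ranked 48 among them. Gzmk, its neighbour on chromosome 13, was scarce, at 0.331, 0.362 and 0.463 CPM in Female and 0.877, 1.13 and 1.02 CPM in Male. The highest Female library stayed below the lowest Male library, and the log2 fold change was 1.39 (SE 0.242, adjusted p 0.000748 by edgeR).

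Gzmb was abundant in both sexes. Female libraries held 1066, 1046 and 1015 CPM and Male libraries 2390, 2440 and 2392 CPM. Replicates differed little beside the gap between the sexes, at a log2 fold change of 1.21 (SE 0.018, adjusted p 1.86e-11 by edgeR). Gzmc, next to it on chromosome 14, was at 2.97, 2.63 and 2.33 CPM in Female and 4.15, 4.67 and 4.79 CPM in Male. The groups stayed apart, at a log2 fold change of 0.78 (SE 0.131, adjusted p 0.000577 by edgeR).

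The other cluster genes on chromosome 14 gave almost no counts in these libraries. Gzmd had 0, 0 and 6 counts in Female and 7, 0 and 0 in Male, Gzme had 0, 0 and 5 counts in Female and 0 in each Male library, and Gzmg had 0 in all 6. Gzmf had 5, 0 and 9 counts in Female and 0, 9 and 10 in Male. A count of 0 allows up to 3 counts, which was 0.0309 to 0.0354 CPM in these libraries, for counting error only. No sex difference in these genes was detectable at this depth. Gzmn, a further chromosome 14 granzyme outside the 10, had 0 counts in all 12 samples.

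Prf1, the pore former, was at 4.24, 4.24 and 4.47 CPM in Female and 19.9, 21.8 and 19.3 CPM in Male. Every Male library was above every Female library, at a log2 fold change of 2.24 (SE 0.07, adjusted p 2.49e-09 by edgeR). Gzmm, on the same chromosome, was at 1.37, 1.19 and 1.40 CPM in Female and 2.17, 2.70 and 1.62 CPM in Male. Its Male libraries were spread widely and just cleared the Female ones. The log2 fold change was 0.71 (SE 0.204, adjusted p 0.0143 by edgeR). The call was lost without Male replicate 2 (adjusted p 0.0675 by edgeR) or without Female replicate 2 (adjusted p 0.0508 by edgeR), over alternatives with adjusted p from 0.00388 to 0.0675.

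**Figure D1:**
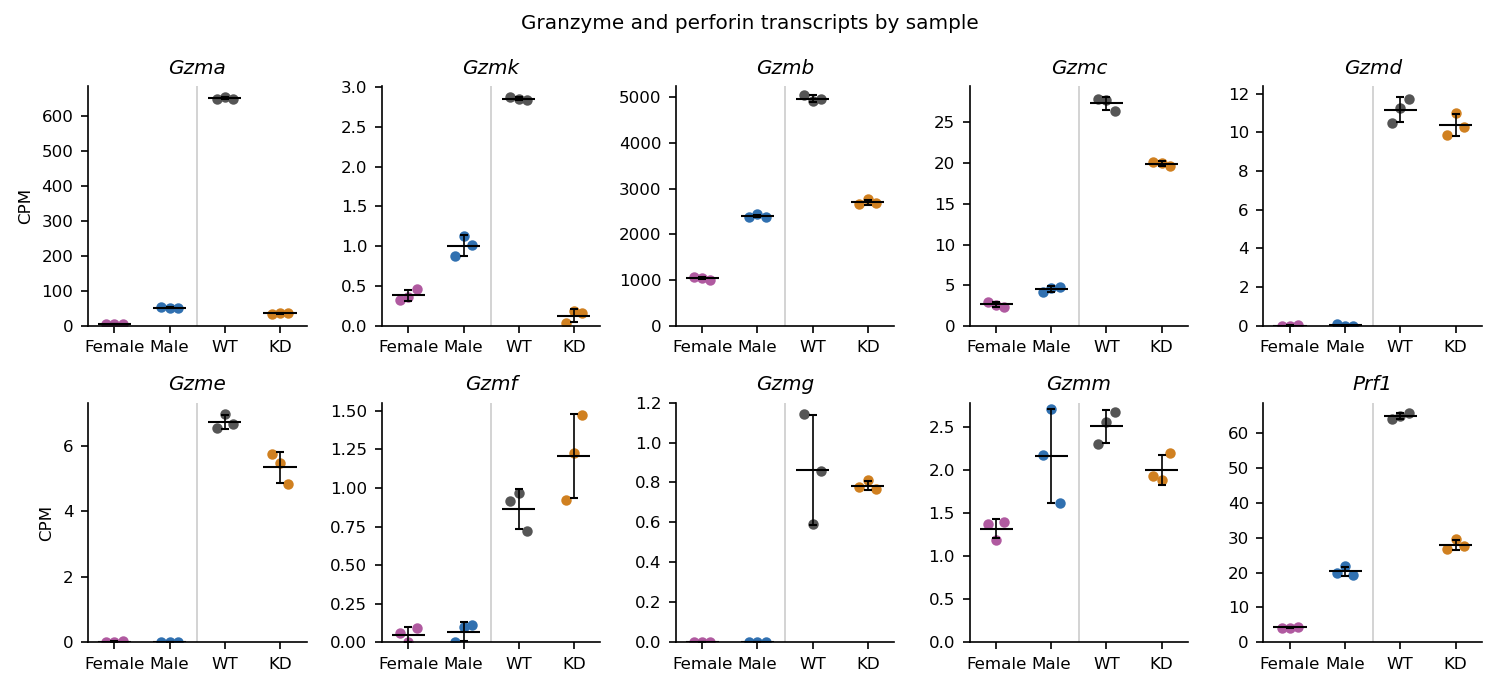
Level in CPM (vertical axis, from 0) of the 10 genes in the 4 groups, with 1 point per sample, bars at the mean and whiskers of 1 SD (n = 3); the grey line separates the 2 count tables, which were scaled separately. Gzma, Gzmk, Gzmb, Gzmc, Gzmm and Prf1 are higher in Male than in Female, and Gzma and Gzmk in KD are near the bottom of their panels, below WT.

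The second comparison asked what changed in male cells given Cas9 with the Kdm5d guide. In KD, Gzma fell 18.2-fold and Gzmk 21.1-fold, while Prf1 fell 2.32-fold, Gzmb 1.84-fold, Gzmc 1.37-fold and Gzme 1.26-fold. Gzmd, Gzmf, Gzmg and Gzmm were not called. All 10 genes passed the filter on low counts. Of these, 0 were called higher and 6 lower in KD, where 16.8% of 20413 genes rose and 18.4% fell (35.1% in either direction). The balance over all genes depended on the scaling, with 3424 higher and 3747 lower here, 4002 and 3279 with upper-quartile factors, and 4152 and 3125 with no scaling factors, while 6 of the 10 genes were called lower, and 0 higher, under each. With at least 1 log2 unit required as well, Gzma, Gzmk and Prf1 were called, against 3.96% of all genes. The groups did not overlap in 7 of the 10, namely the 6 called genes and Gzmm, against 46.8% of all genes tested. The median on the log2 scale was -0.39, beside 0.0124 over all genes.

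Gzma was at 647, 652 and 648 CPM in WT and at 34.4, 36.4 and 36.1 CPM in KD. The KD mean was 5.5% of the WT mean, and replicates were nearly the same. The log2 fold change of -4.19 (SE 0.0262, adjusted p 9.97e-14 by edgeR) had the smallest p of all genes tested, at rank 1. Gzmk was at 2.87, 2.85 and 2.83 CPM in WT and 0.0375, 0.184 and 0.166 CPM in KD. The KD values rest on 3, 20 and 16 counts, the first of them at the floor of 3 counts. The groups were far apart, at a log2 fold change of -4.40 (SE 0.344, adjusted p 4.91e-06 by edgeR). In size, the changes of Gzma and Gzmk exceeded those of 99.87% and 99.89% of the genes tested.

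Gzmb was at 5045, 4909 and 4960 CPM in WT and 2658, 2767 and 2685 CPM in KD. Every KD library was below every WT library, yet Gzmb remained the most abundant of the 10 genes in KD, per kilobase as well. Its log2 fold change was -0.88 (SE 0.0164, adjusted p 8.76e-10 by edgeR). Gzmc was at 27.9, 27.8 and 26.4 CPM in WT and 20.1, 20.1 and 19.6 CPM in KD, a smaller shift with no overlap and a log2 difference of -0.46 (SE 0.0407, adjusted p 1.22e-05 by edgeR).

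Of the remaining genes of the chromosome 14 cluster, Gzme was called and Gzmd, Gzmf and Gzmg were not. Gzmd was at 10.5, 11.3 and 11.7 CPM in WT and 9.88, 11.0 and 10.3 CPM in KD, with overlapping groups and a log2 difference of -0.10 (adjusted p 0.312 by edgeR). Gzme was at 6.54, 6.96 and 6.66 CPM in WT and 5.74, 5.47 and 4.82 CPM in KD. Its groups did not overlap, at a log2 fold change of -0.33 (SE 0.0929, adjusted p 0.0186 by edgeR). This call was lost without WT replicate 2 (adjusted p 0.0677 by edgeR), without KD replicate 3 (adjusted p 0.0651 by edgeR) and with all 12 samples in 1 fit (adjusted p 0.302 by edgeR), over alternatives from 0.0158 to 0.302.

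The scarcest cluster genes were Gzmf and Gzmg. Gzmf was at 0.914, 0.965 and 0.721 CPM in WT and 0.925, 1.23 and 1.47 CPM in KD. Its groups overlapped, and the log2 fold change of 0.48 (SE 0.227, adjusted p 0.136 by edgeR) was the only positive value among the 10 genes. Gzmg was at 1.14, 0.592 and 0.855 CPM in WT and 0.775, 0.811 and 0.767 CPM in KD. The KD libraries lay within the wide WT range, at a log2 fold change of -0.14 (SE 0.257, adjusted p 0.73 by edgeR) that turned to 0.11 without WT replicate 1.

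Prf1 was at 64.1, 64.9 and 65.6 CPM in WT and 26.7, 29.6 and 27.8 CPM in KD. KD libraries were well below WT, at a log2 fold change of -1.21 (SE 0.0423, adjusted p 1.76e-08 by edgeR). Gzmm was at 2.29, 2.55 and 2.67 CPM in WT and 1.93, 1.88 and 2.2 CPM in KD. The Gzmm groups lay close together without overlap, and the log2 fold change of -0.32 (SE 0.141, adjusted p 0.106 by edgeR) missed the threshold. The summed level of the macrophage and dendritic cell genes was also lower in KD than in WT. Most of that gap lay in Itgax, at 1.19 CPM in KD and 3.57 CPM in WT, and which cells made it was not tested. Of the others on that list, Csf1r was at 0.415 CPM in KD and 0.405 in WT, Itgam at 0.193 and 0.155, and Cd14 at 0.137 and 0.0206. Lyz2 was at 0.00921 CPM in KD and 0.0343 in WT, and Flt3 at 0 and 0.0504, so both were lower in KD but scarce. Adgre1 and Siglech were at 0 in both groups. Foxp3, a marker of regulatory T cells, averaged 4.38 CPM in Male against 2.82 in Female (log2 fold change 0.63, adjusted p 0.0208 by edgeR). It averaged 2.65 CPM in WT and 1.46 in KD (log2 fold change -0.86, adjusted p 0.00243 by edgeR). Cd4 went the other way between the sexes, at 0 CPM in Male and 0.182 in Female (adjusted p 0.000843 by edgeR). Cd4 was not tested between KD and WT. Cd40lg was called in neither comparison (adjusted p 0.167 and 0.412 by edgeR). The B cell gene Cd79b was at 4.93 CPM in WT and 3.62 in KD (log2 fold change -0.45, adjusted p 0.0209 by edgeR), while Cd79a was at 0.902 and 0.957. The part of these genes in the results was not tested, and all were singled out after their values were seen.

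**Figure D2:**
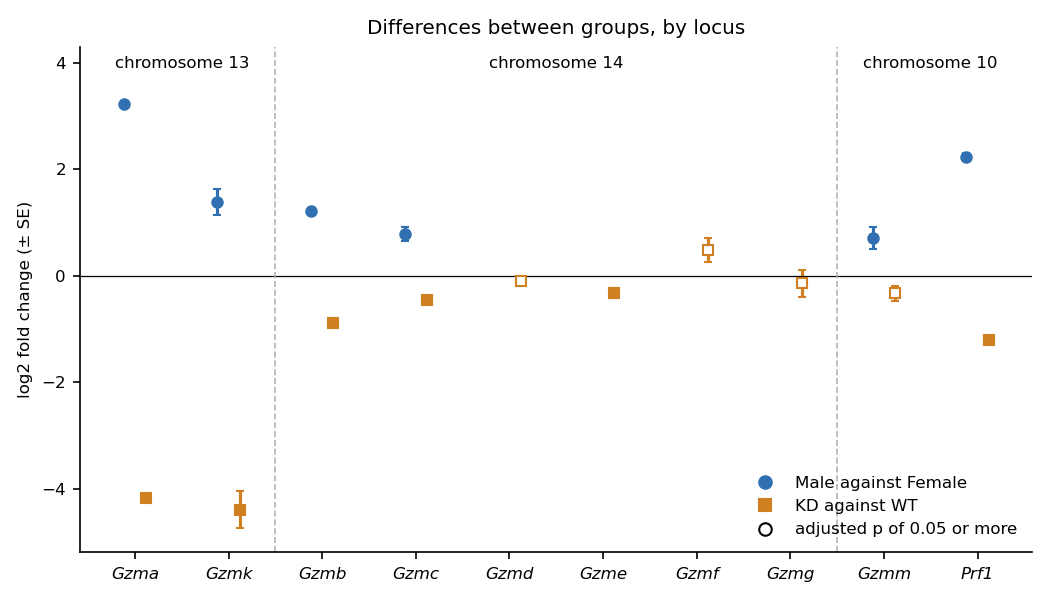
Log2 fold change (vertical axis, whiskers of 1 SE) of each gene between Male and Female (circles) and between KD and WT (squares), ordered by chromosome; open symbols mark an adjusted p of 0.05 or more, and Gzmd to Gzmg have no circle because they were not tested between the sexes. Gzma and Gzmk on chromosome 13 are at -4.19 and -4.40 in KD, while Gzmb to Gzmg on chromosome 14 lie between -0.88 and 0.48.

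Set side by side, the comparisons moved 5 of the 10 genes in opposite senses. Gzma, Gzmb, Gzmc, Gzmk and Prf1 were called higher in Male than in Female and lower in KD than in WT. Over all genes tested, 23.5% were called higher in Male and 18.4% lower in KD. The share of genes with both calls was not counted. The comparisons have no samples in common. Gzmm was called between the sexes and not between KD and WT, Gzme was not tested between the sexes, and no difference between the comparisons was tested.

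Levels differed between the batches as well, although the tables were scaled separately and no test across them was made. Gzma averaged 5.59 CPM in Female, 35.7 in KD, 52.3 in Male and 649 in WT. Gzmb averaged 1042 CPM in Female, 2407 in Male, 2703 in KD and 4971 in WT. Prf1 followed the same order as Gzmb, with 4.32, 20.3, 28.0 and 64.9 CPM. For these 3 genes no neighbours in the order overlapped. Gzmd averaged 0.0206 CPM in Female, 0.0250 in Male, 10.4 in KD and 11.2 in WT, so that this gene and Gzme, Gzmf and Gzmg were near 0 in the first table and counted in every library of the second. The Female and Male ranges of Gzmd overlapped, as did those of KD and WT. Gzmk had its lowest mean in KD (0.129 CPM), followed by Female (0.385), Male (1.01) and WT (2.85), with no overlap. Gzmm averaged 1.32 CPM in Female, 2.0 in KD, 2.16 in Male and 2.51 in WT, and Male overlapped with both KD and WT.

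Levels can be ranked between genes only after division by transcript length. In WT the order in CPM per kilobase was Gzmb (3462), Gzma (739), Gzmc (30.6), Prf1 (26.2), Gzmd (11.6), Gzme (7.34), Gzmk (2.78), Gzmm (1.95), Gzmg (0.949) and Gzmf (0.943), and the last pair overlapped. In KD, Gzmb (1882), Gzma (40.6) and Gzmc (22.3) kept the first places in CPM per kilobase, and Gzmk (0.126) was last. There Prf1 (11.3) overlapped with Gzmd (10.8), and Gzmm (1.55) with Gzmf (1.31). In Female, Gzmb (726) was followed by Gzma (6.37), Gzmc (2.96), Prf1 (1.75), Gzmm (1.03) and Gzmk (0.375) in CPM per kilobase. In Male, Prf1 (8.22) stood above Gzmc (5.07) in CPM per kilobase, the reverse of the other 3 groups.

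The 10 genes together took 0.106% ± 0.00177 (SD, n = 3) of the counts in Female and 0.249% ± 0.00169 (SD, n = 3) in Male, a ratio of 2.35. They took 0.566% ± 0.0069 (SD, n = 3) in WT and 0.284% ± 0.00473 (SD, n = 3) in KD, a ratio of 0.503. Neither pair of groups overlapped, and the exact two-sided permutation p was 0.1 for each, the smallest that 3 against 3 samples allow. The 95% Wilson interval of any single library reached at most 0.00148 percentage points to either side, for counting error only.

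Gzmb made up most of this sum. Its share of the counts of the 10 genes was 98.6% ± 0.0416 (SD, n = 3) in Female, 96.8% ± 0.0643 in Male, 86.6% in WT and 96.3% ± 0.0379 in KD. Gzma accounted for 0.529% ± 0.0283 in Female, 2.1% ± 0.0644 in Male, 11.3% in WT and 1.27% ± 0.0236 in KD. Per kilobase the Gzma shares were 0.862%, 3.4%, 17.3% and 2.05%. Perforin, the longest transcript of the set, took 0.409% in Female, 0.817% in Male, 1.13% in WT and 0.997% in KD by counts, and 0.237%, 0.469%, 0.612% and 0.572% per kilobase.

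**Figure D3:**
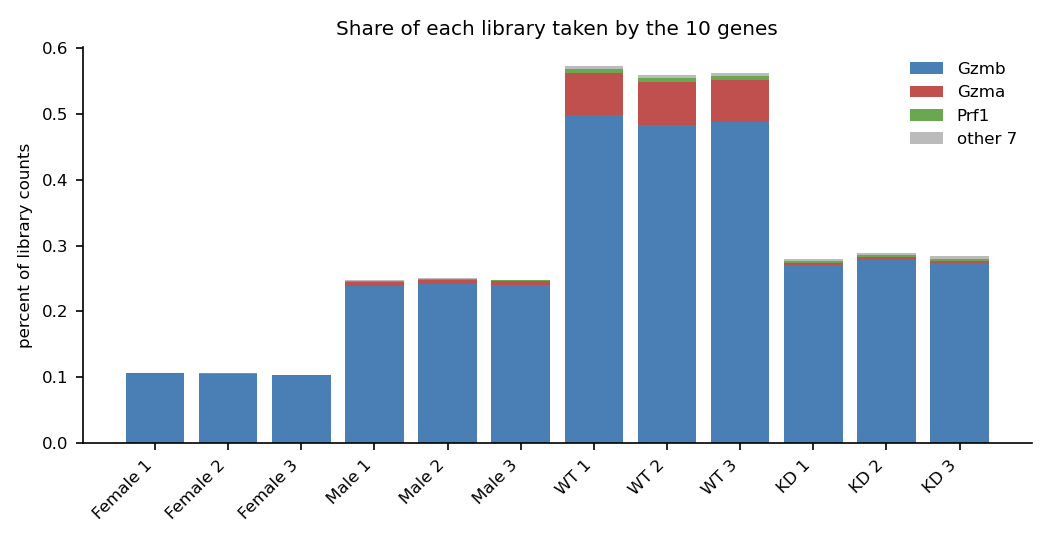
Share of each library's counts (percent, vertical axis from 0) taken by Gzmb, Gzma, Prf1 and the other 7 genes, stacked, 1 bar per sample. The bars average 0.106% in Female, 0.249% in Male, 0.566% in WT and 0.284% in KD, and the Gzma segment is largest in WT.

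Ratios within a sample do not depend on library scaling, and they show unequal changes among the 10 genes. The log2 ratio of Gzma to Gzmb counts was -7.54 ± 0.0766 (SD, n = 3) in Female and -5.52 ± 0.0443 (SD, n = 3) in Male, a difference of 2.02. It was -2.94 ± 0.0256 (SD, n = 3) in WT and -6.25 ± 0.0273 (SD, n = 3) in KD, a difference of -3.31. Gzma thus changed more than Gzmb in both comparisons. Gzmk, the other chromosome 13 gene, gave unlike values in the comparisons. Its log2 ratio to Gzmb differed by -3.89 between KD and WT, without overlap, but differed by 0.19 between Male and Female, where the groups overlapped (exact two-sided permutation p 0.4). For Prf1 against Gzmb the log2 ratio differed by 1.03 between Male and Female and by -0.33 between KD and WT, both without overlap.

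The chromosome 14 genes did not move as 1 block with Gzmb. In KD the log2 ratios to Gzmb were higher than in WT by 0.42 for Gzmc, 0.78 for Gzmd, 0.54 for Gzme, 1.34 for Gzmf and 0.79 for Gzmg, with no overlap for any of them. Gzmm to Gzmb differed by 0.55 in the same direction. These ratios share Gzmb, whose own log2 fold change was -0.88, so a gene that did not change would also give a higher ratio. The share of all genes with such a ratio was not counted. Reads of Gzmc to Gzmg may also have been credited to the wrong copy. Gzmk and Gzma, the chromosome 13 pair, could not be separated in KD: their log2 ratio was -7.83 ± 0.0118 (SD, n = 3) in WT and -8.41 ± 1.24 (SD, n = 3) in KD, and the groups overlapped (exact two-sided permutation p 1.0). Between the sexes Gzmk rose less than Gzma, with a log2 ratio lower by 1.83 in Male. Each non-overlapping ratio had an exact two-sided permutation p of 0.1, the smallest possible. Adjusted by Benjamini-Hochberg, these were 0.117 over 7 ratios between the sexes and 0.11 over 11 ratios between KD and WT, so none can pass a threshold of 0.05 in this design.

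The genes beside the 4 loci were read to 500 kb on either side, against a background of 23.5% of all genes higher and 26.3% lower in Male, and 16.8% higher and 18.4% lower in KD. Around Gzma and Gzmk, 13 neighbours were tested in each comparison. In Male, 2 were higher and 3 lower, their median being -0.0852 on the log2 scale. In KD, 1 was higher and 4 were lower, with a median of -0.112. The nearest neighbours of the chromosome 13 pair were 2 of the 4 that were lower in KD, and both were scarce. Esm1, which encodes the secreted proteoglycan endocan, lies on the plus strand within the annotated span of Gzmk. It was at 2.86 CPM in WT and 0.474 CPM in KD, at a log2 fold change of -2.60 (SE 0.296, adjusted p 7.01e-05 by edgeR). Cdc20b, on the plus strand 2.63 kb from Gzma, was at 0.443 to 0.557 CPM in WT and 0 to 0.135 CPM in KD, at a log2 fold change of -2.76 (SE 0.631, adjusted p 0.00637 by edgeR). Between the sexes, where Gzma rose 9.36-fold, the log2 fold changes were -0.01 for Esm1 (adjusted p 0.991 by edgeR) and 0.11 for Cdc20b (adjusted p 0.905 by edgeR). Beyond Gzmk the nearest tested gene outside its span, Snx18, was 366.3 kb away, with log2 fold changes of -0.19 in Male and -0.25 in KD. On the Cdc20b side, at 103 kb and 47.4 kb, Ccno had a log2 fold change of -1.16 in KD (adjusted p 0.0513 by edgeR) and Gpx8 of -1.35 (adjusted p 0.279 by edgeR). Ccno and Gpx8 were named after their values were seen. The library kit keeps strand, but whether the counting used it is not given, so counts of Esm1 and of Gzmk transcripts that overlap it cannot be told apart.

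Around the chromosome 14 cluster, 35 neighbours were tested, with 14 higher and 3 lower in Male, and 5 higher and 9 lower in KD. The nearest tested were the processed pseudogenes Gm48200, 13.5 kb beyond Gzmb, and Gm5801. Gm48200 was lower in KD with a log2 fold change of -0.99 (adjusted p 0.00483 by edgeR) and had 0.53 in Male (adjusted p 0.411 by edgeR). Farther off, the leukotriene receptor gene Ltb4r1 fell from 28.1 to 13.1 CPM in KD (log2 fold change -1.10), and Tssk4 had -1.16. Nfatc4 was called higher in Male and lower in KD, but its Female and KD libraries held 0 to 0.0354 CPM and 0 to 0.0311 CPM, at or under 3 counts, so no fold is given; it averaged 0.226 CPM in Male and 0.157 in WT.

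Around Gzmm, 39 neighbours were tested, with 12 higher and 12 lower in Male, and 11 higher and 7 lower in KD. Its nearest neighbour Cdc34, 0.622 kb away, was higher in both comparisons, with log2 fold changes of 0.36 and 0.11, and Bsg on the other side had 0.71 and 0.23. Of the genes near Prf1, 19 were tested between the sexes, with 6 higher and 3 lower, and 21 between KD and WT, with 5 higher and 3 lower. The nearest, Pald1 and Adamts14, had log2 fold changes of -0.69 and 0.99 in Male, of which Adamts14 alone was called (adjusted p 0.00244 by edgeR). In KD they had 0.28 and -0.07, and neither was called. The other named neighbours past 1 log2 unit were Ppa1 (1.43), Gm26947 (1.46) and Gm19972 (1.20) in Male near Prf1, H2afy2 (2.35) in KD near Prf1, and Efna2 (-1.12 in Male, 2.42 in KD) near Gzmm. Nodal, near Prf1, was called lower in KD at 0 to 0.0645 CPM, against 0.124 to 0.218 CPM in WT. With a window of 200 kb, the chromosome 13 pair had 7 neighbours tested in KD, with 0 higher and 3 lower and a median of -1.16 on the log2 scale, and 6 in Male, with 1 higher and 0 lower and a median of 0.0513. In that window the medians in Male and KD were 0.473 and -0.163 near the chromosome 14 cluster (3 genes), 0.211 and 0.191 near Gzmm (19 genes), and -0.00905 and 0.0882 near Prf1 (9 and 10 genes). Near the chromosome 14 cluster 0 were called in Male and 1 was lower in KD. Near Gzmm 6 were higher and 2 lower in Male, and 6 higher and 1 lower in KD. Near Prf1 2 were higher and 2 lower in Male, and 2 higher and 1 lower in KD.

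**Figure D4:**
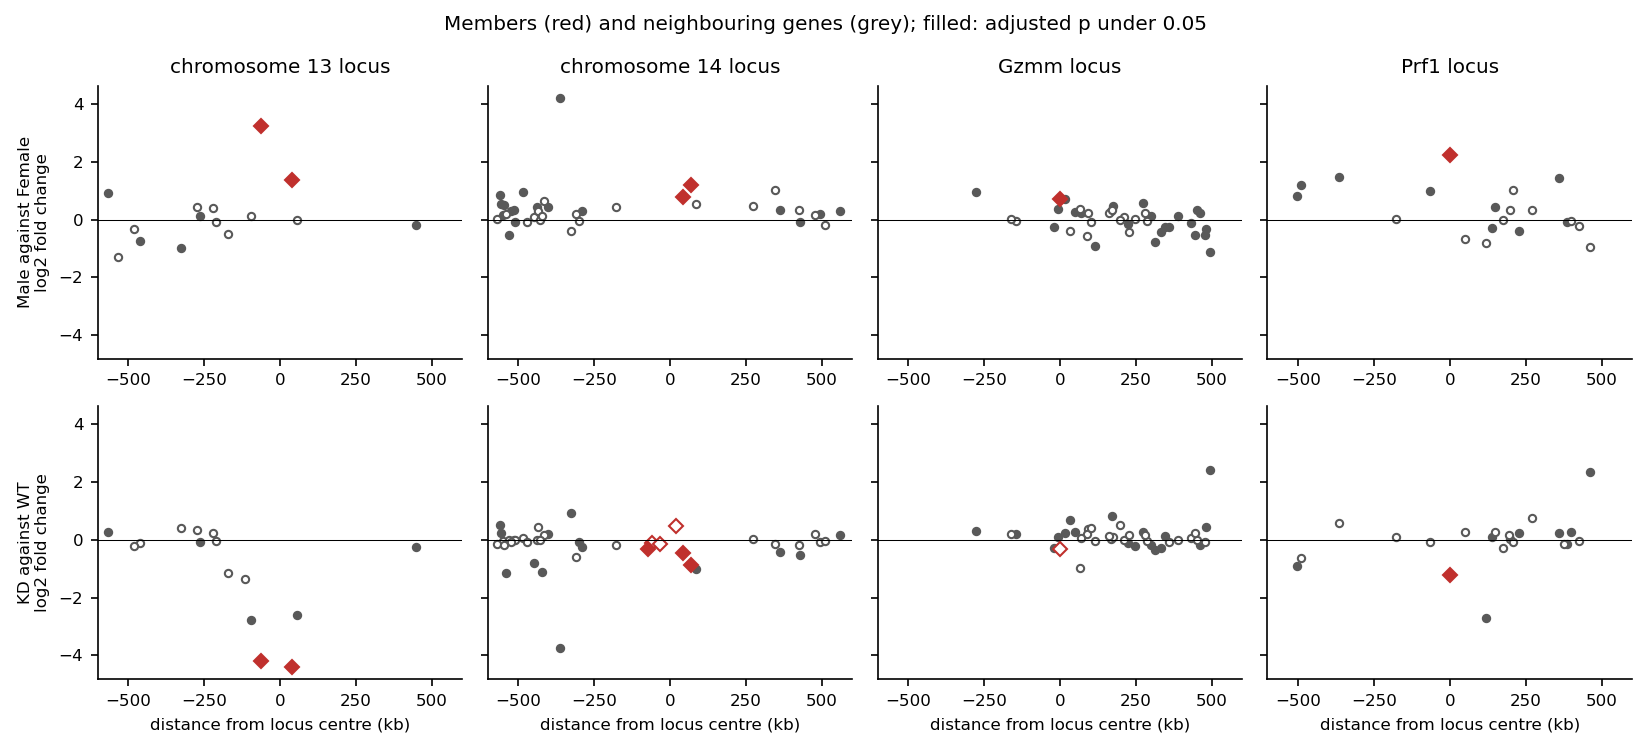
Log2 fold change (vertical axis) of the granzyme and perforin genes (red diamonds) and of tested genes beside them (grey circles) against distance from the centre of each locus in kilobases, for Male against Female (top) and KD against WT (bottom); filled symbols mark an adjusted p under 0.05. In KD, Esm1 at -2.60 and Cdc20b at -2.76 lie beside Gzma and Gzmk on chromosome 13.

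Genes that act with the granzymes were followed in 5 lists, described by counts and medians. Over all genes tested, 23.5% were higher and 26.3% lower in Male at a median of 0.0106, and 16.8% were higher and 18.4% lower in KD at a median of 0.0124. These shares are the background for each list below. The granule trafficking and exocytosis list had 28 genes tested. In Male, 7 were higher and 8 lower (median -0.0203 on the log2 scale), and in KD, 2 were higher and 17 lower (median -0.16), beside 18.4% of all genes. The synaptotagmin-like gene Sytl3, whose product binds Rab27 on granules, had log2 fold changes of 0.51 in Male and -0.68 in KD. Its relative Sytl2 fell by 0.73 on the log2 scale in KD and was also lower in Male, at -0.18 (adjusted p 0.0101 by edgeR). Stx11, a membrane fusion protein whose loss in people impairs granule release, went from 22.8 to 11.6 CPM in KD (log2 fold change -0.97, adjusted p 2.53e-06 by edgeR) and had -0.02 in Male (adjusted p 0.796 by edgeR). Ap3d1, an adaptor subunit for granule transport, fell by 0.45 in KD and was also lower in Male, at -0.10 (adjusted p 0.00473 by edgeR). Lamp2, Unc13d and Kif5b were higher in Male, with log2 fold changes of 0.52, 0.30 and 0.29. In KD, Unc13d and Kif5b were called lower, at -0.305 and -0.07, and Lamp2 had -0.08 (adjusted p 0.114 by edgeR).

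Among granule cargo, processing and sorting genes, 10 of 16 tested were higher and 2 lower in Male (median 0.274), and 5 of 17 were higher and 7 lower in KD (median -0.079), beside 23.5% of all genes higher in Male and 18.4% lower in KD. Calr, a chaperone that also sits in granules with perforin, went from 154 CPM in Female to 329 CPM in Male, with log2 fold changes of 1.09 in Male and 0.15 in KD. Nkg7, a granule membrane protein, had 0.57 and -0.28. The lysosomal protease gene Ctsd had 0.50 and -0.71. Fasl, the death ligand of the other killing pathway, had 0.86 in Male and -1.22 in KD, where it went from 68.5 to 29.4 CPM. Igf2r, a mannose 6-phosphate receptor that can carry granzymes, was lower in KD at -0.48 and had 0.01 in Male (adjusted p 0.74 by edgeR). Ctsc, which activates granzymes by removing their propeptide, had 0.62 in Male and -0.28 in KD. Srgn, which was counted in the trafficking list, encodes the proteoglycan that holds granzymes in the granule. It had -0.09 in Male (adjusted p 0.03 by edgeR) and 0.04 in KD (adjusted p 0.258 by edgeR). Ctsc and Srgn were named after their values were seen.

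The inhibitors, which guard the T cell against its own proteases, included genes that followed the granzymes. Of 8 tested, 5 were higher and 0 lower in Male (median 0.454), and of 9 tested, 1 was higher and 4 were lower in KD (median -0.0612), beside the same 23.5% and 18.4% of all genes. Serpinb9, the inhibitor of granzyme B, went from 36.5 to 106.7 CPM between Female and Male and from 174.5 to 74.8 CPM between WT and KD. Its log2 fold changes were 1.55 (adjusted p 8.3e-11 by edgeR) and -1.22 (adjusted p 1.97e-09 by edgeR). Serpinb6b went from 33.9 to 50.9 CPM and from 63.8 to 16.7 CPM, with log2 fold changes of 0.59 and -1.93. Serpina3g, an inhibitor of lysosomal cathepsins, had 1.12 in Male and -0.02 in KD (adjusted p 0.697 by edgeR). Serpina3f was higher in both comparisons, with 2.31 and 0.62, and Serpinb6a had 0.32 and -0.30.

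Of 34 upstream regulators, 10 were higher and 17 lower in Male (median -0.0981), and 4 were higher and 20 lower in KD (median -0.212), beside 26.3% of all genes lower in Male and 18.4% lower in KD. Tcf7 and Bach2, transcription factors of naive and memory cells, were lower in Male by 1.45 and 1.48 on the log2 scale. In KD, Tcf7 was called higher at 0.30 and Bach2 had -0.06 (adjusted p 0.254 by edgeR). Eomes, a T-box factor that activates Prf1 and Gzmb, was higher in Male at 1.69 and had 0.03 in KD (adjusted p 0.321 by edgeR). The IL2 receptor chain gene Il2rb had 0.75 in Male and -0.56 in KD. In KD, the AP-1 factor gene Fosl2 fell by 0.84, Runx3 by 0.67 and Stat4 by 0.66, while Irf4 was higher by 0.80. In Male, Runx3, Stat4 and Irf4 were lower, at -0.36, -0.35 and -0.39, so Runx3 and Stat4 were lower in both comparisons, and Fosl2 had -0.07 there (adjusted p 0.0605 by edgeR). Tbx21 and Prdm1, named after their values were seen, had log2 fold changes of -0.09 and -0.80 in Male and of -0.19 and 0.27 in KD.

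The last list held proteins that granzymes cut in the target. Of 10 tested, 7 were higher and 0 lower in Male (median 0.204), and 5 were higher and 3 lower in KD (median 0.0365), beside 23.5% of all genes higher in Male and 16.8% higher in KD. Hmgb2 and Set, both parts of a complex cut by granzyme A, had 0.71 and 0.23 in Male and 0.07 and 0.23 in KD. Lmnb1 had 0.47 and Parp1 0.39 in Male. In KD, Parp1 was called higher at 0.24 and Lmnb1 had -0.0016 (adjusted p 0.962 by edgeR). Lmna was lower in KD at -1.25, going from 24.9 to 10.5 CPM, and had 0.17 in Male (adjusted p 0.201 by edgeR).

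**Figure D5:**
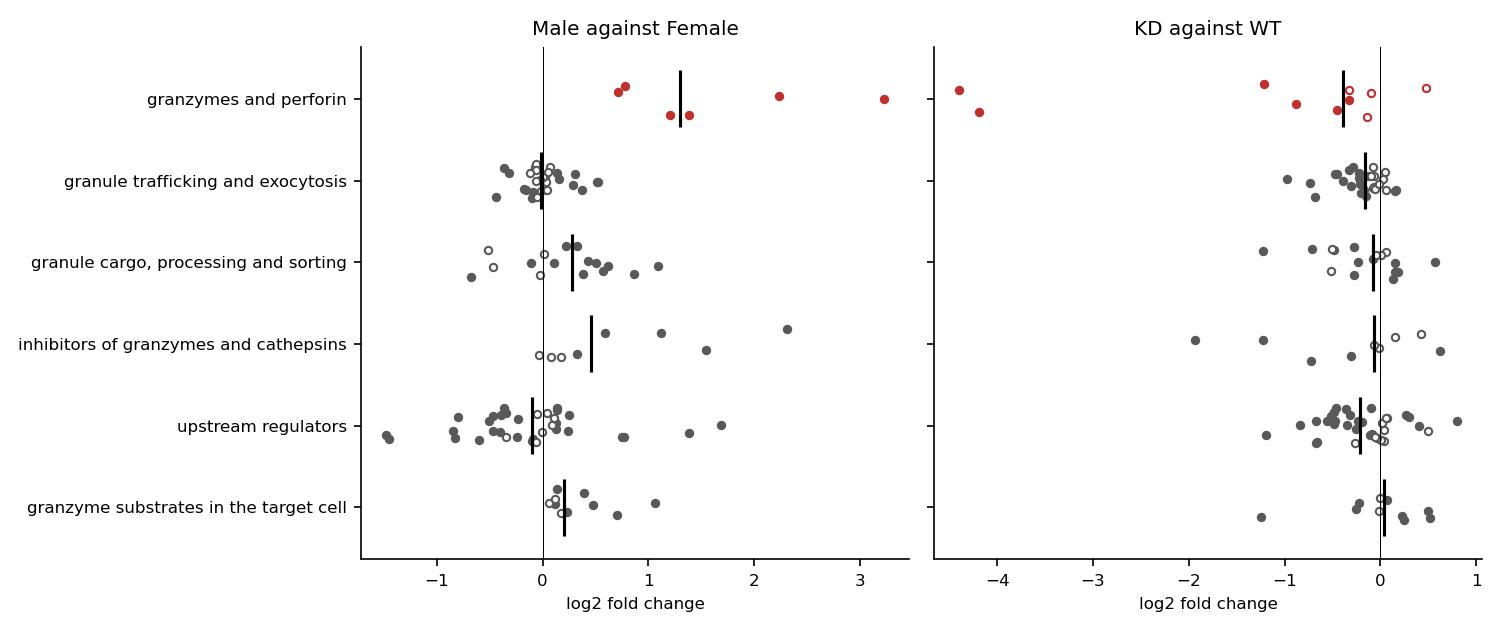
Log2 fold changes (horizontal axis) of the 10 genes (red) and of 5 lists of genes that act with them (grey), 1 point per tested gene, filled where the adjusted p was under 0.05, with a black bar at each median; vertical scatter within a row has no meaning. In KD the trafficking list has 17 of 28 points called to the left of 0, with a median of -0.16.

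Genes with the pattern most like each granzyme were found by Pearson correlation of log2 CPM over the 12 samples after table means were removed. Such values rest mainly on the differences between groups and describe likeness only, since the samples within each comparison share their batch and culture. For Gzma the 5 highest were Hip1, Rps6ka1, Tgfb3, Gem and Lck, with r from 0.998 to 0.999, and 724 of 11945 genes reached 0.9. For Gzmb they were Zbp1, Adam19, P2ry14, Ddx58 and Lgals3, again 0.998 to 0.999, and 931 genes reached 0.9. Prf1 was closest to Wdr1, Gm20559, Cmpk2, Oas3 and Phf11c, with r from 0.998 to 0.999 and 1038 genes at 0.9 or more. Gzmk was closest to Reep5, Bcl2l1, Nbeal2, Gpt2 and Slco3a1, with r from 0.987 to 0.992 and 487 genes at 0.9 or more. With Spearman's rho in place of Pearson's r, 0 of the 5 names were shared for Gzma, Gzmb, Prf1 or Gzmk, so the names depend on the measure.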

How the data were processed

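The deposited files were 2 tables of whole-number counts made by the authors, with the sexes in 1 table and the electroporated cells in the other. Total RNA was depleted of ribosomal RNA and made into stranded libraries, per the labels' protocols. The submitters' processing notes name bcl2fastq 2.20.0, HISAT2, StringTie, DESeq2 and the build mm10. The annotation and the use of strand in counting are not given in the sources used here. Counts derived from transcript assembly can overstate the number of independent fragments, so counts divided by 4 were tried as an alternative.

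Groups came from the sample titles. Symbols, positions and lengths were looked up in GENCODE M21, which matched 55227 identifiers and left 260 unmatched, and promoter windows came from RefSeq on GRCm38.p6. Each table was fitted alone in R 4.3.3 with edgeR 4.0.16 (TMM, filterByExpr, quasi-likelihood test, Benjamini-Hochberg over all genes), calling genes at an adjusted p under 0.05. The fit was tested on simulated data. CPM used TMM-scaled totals of its own table, and levels per kilobase used the principal transcript. Single values had exact permutation tests. Alternatives used limma 3.58.1, DESeq2 1.42.0, other scalings, filters and thresholds, a replicate block, all 12 samples in 1 fit, and each replicate left out.

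The 10 genes, the lists and the motifs were chosen with earlier results of these data known. Named were the 10 genes and Kdm5d, up to 4 called genes with the smallest p per list and comparison, the nearest tested neighbours of each locus and those called with at least 1 log2 unit, the defining markers of other cell types, and the 5 genes most like Gzma, Gzmb, Prf1 and Gzmk. Any other name was picked with its values in view, and the text says so there. A few listed genes are not reported here.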

Additional observations from a re-analysis of the deposited data

How the results depend on the processing

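Gzma, Gzmb, Gzmc, Gzmk and Prf1 kept their direction and stayed past an adjusted p under 0.05 in both comparisons under each scaling, filter, test and left-out replicate in which they were tested. With at least 1 log2 unit required as well, 1471 genes were called between the sexes and 808 in KD against WT, and of the 10 genes 3 were called lower in KD (Gzma, Gzmk and Prf1). Gzmg in KD ran from -0.3491 to 0.1146 on the log2 scale over the left-out replicates, reversed without WT replicate 1, and the cause was not tested.

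The share of counts in the 10 genes was higher in Male by 0.143 percentage points, and by 0.1613 among protein-coding genes only or 0.1475 without the identifier with the most counts. Between KD and WT it differed by -0.2812, by -0.3086 among protein-coding genes and by -0.2888 without that identifier. Both follow from the smaller denominator.

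Leaving out each replicate in turn gave 9190 to 9399 called genes between the sexes and 6073 to 6685 between KD and WT. Between 5 and 6 of the 10 genes were then higher in Male, and between 5 and 6 lower in KD. Kdm5d ran from -1.245 to -1.188 on the log2 scale, the share of counts from 0.142 to 0.1438 and from -0.284 to -0.2774 percentage points, and the log2 ratio of Gzma to Gzmb from 1.993 to 2.064 and from -3.321 to -3.294. With 3 counts added, that ratio was 2.01 and -3.31.

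Replicate numbers recur in every group. Deviations of same-numbered samples correlated from -0.0399 to 0.0206 in the electroporated cells and from -0.00113 to 0.0176 between the sexes. No pairing by number was seen, but 3 samples per group are too few to show that samples had no source in common. With the replicate number as a block, 9740 genes were called between the sexes and 6688 between KD and WT, 6 of the 10 genes rose in Male, 6 fell in KD, and Kdm5d was at -1.208.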
